A study of Rattus norvegicus with 24 samples.

Results

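The substantia nigra of 3 dyskinetic rats was set against the substantia nigra of 3 intact rats, both given levodopa. These 6 arrays were taken by their labels from the 24 arrays of a study of striatum and nigra in adult male Sprague Dawley rats of 200 to 225 g. The dyskinetic rats had received 6-OHDA, a toxin taken up by catecholamine neurons, and then levodopa, and they had developed levodopa-induced dyskinesia, the abnormal involuntary movements that can follow repeated levodopa. The intact rats had received the saline and ascorbic acid vehicle in place of the toxin and the same drug, so that levodopa was common to both groups and no group was intact and free of it. Nigral arrays of 3 non-dyskinetic rats (6-OHDA, levodopa, no dyskinesia) and of 3 vehicle-treated rats (6-OHDA, no levodopa) entered the same fit and are given beside the pair where the result turns on them. Per the labels a lesion was accepted when striatal dopamine loss was over 90%, injections began 3.5 weeks after surgery and movements were rated in 7 sessions. Each array held RNA from the nigral punch of 1 rat, 0.5 by 1.5 mm, with an RNA integrity number of at least 7. The labels gave no hemisphere, levodopa dose, delay from the last injection to death or hybridisation batch.

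Dopamine neurons of the substantia nigra turn tyrosine into dopamine with tyrosine hydroxylase and an aromatic amino acid decarboxylase, load it into vesicles, release it in the striatum and take it back up through the dopamine transporter. 6-OHDA enters through that transporter and destroys the neurons, which leaves the other cells of the nigra in place, most of them GABA neurons, astrocytes, microglia and oligodendrocytes. Levodopa replaces the product of the first enzyme. In the lesioned brain its repeated use raises immediate early genes, a rapid first wave of transcription in active neurons, best studied in the striatum in relation to dyskinesia.

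Gene levels are the mean log2 value of the probe sets that name the gene alone. A difference of 1 on this scale is a doubling, and every difference is dyskinetic minus intact unless stated. Each difference carries its standard error after the ± sign, from the limma fit of the 12 nigral arrays, and adjusted p-values are limma's after Benjamini-Hochberg correction over the 12436 genes tested, with a threshold of 0.05. The number of arrays limits the precision. In a tissue punch, fewer cells of a type and less RNA per cell cannot be told apart.

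Some arrays stood apart by markers of neighbouring tissue. Dyskinetic array 3 read 9.66 for Tph2, the serotonin-synthesising enzyme, where dyskinetic arrays 1 and 2 read 5.52 and 5.45 and the intact arrays 5.62, 5.77 and 5.84. Its value for the serotonin transporter Slc6a4 was 9.19, where the other dyskinetic arrays had 6.67 and 6.57 and the intact arrays 6.62, 6.71 and 6.87. The mean of the 8 cholinergic, serotonergic and noradrenergic markers was accordingly 7.30 on that array, 6.08 and 6.14 on the other dyskinetic arrays and 6.13 to 6.40 on the intact arrays. Dyskinetic array 2 stood at 10.22 for Slc17a6, the vesicular transporter of glutamatergic midbrain neurons, against 7.60 to 8.50 on the intact arrays. Vehicle array 1 had a mean striatal projection neuron marker of 9.32, where the other nigral arrays ran from 8.16 to 8.30. Vehicle array 3 was high in meningeal markers (mean 9.29, against 7.79 to 8.02 on the intact arrays) and in Tph2 (8.90). The counts below are therefore also given without dyskinetic array 3.

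In all, 1996 of 12436 genes passed (16.1%), 686 higher in dyskinetic nigra (5.52% of all) and 1310 lower (10.5%). An unadjusted p under 0.05 was reached by 3737. Of those that passed, 17 were higher and 86 lower by at least a doubling, and the median over all genes was -0.016. The 3 dyskinetic arrays lay on 1 side of the 3 intact arrays in 4981 genes (40.1%), 16.4% higher and 23.7% lower, and in 1981 of the 1996. With quantile normalization of the gene values the split was 922 higher and 1090 lower, nearer to even than the 686 and 1310 above. Leaving out dyskinetic array 3 gave 1136 genes (298 higher, 838 lower), leaving out dyskinetic array 1 gave 1125, and leaving out intact array 1 or 2 gave 1284 or 1003. The largest falls included genes of the dopamine neuron and of its receptors. The largest rises held genes of antigen presentation, complement, immediate early transcription and a stress protein, as the plot of all tested genes shows.

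**Figure D1:**
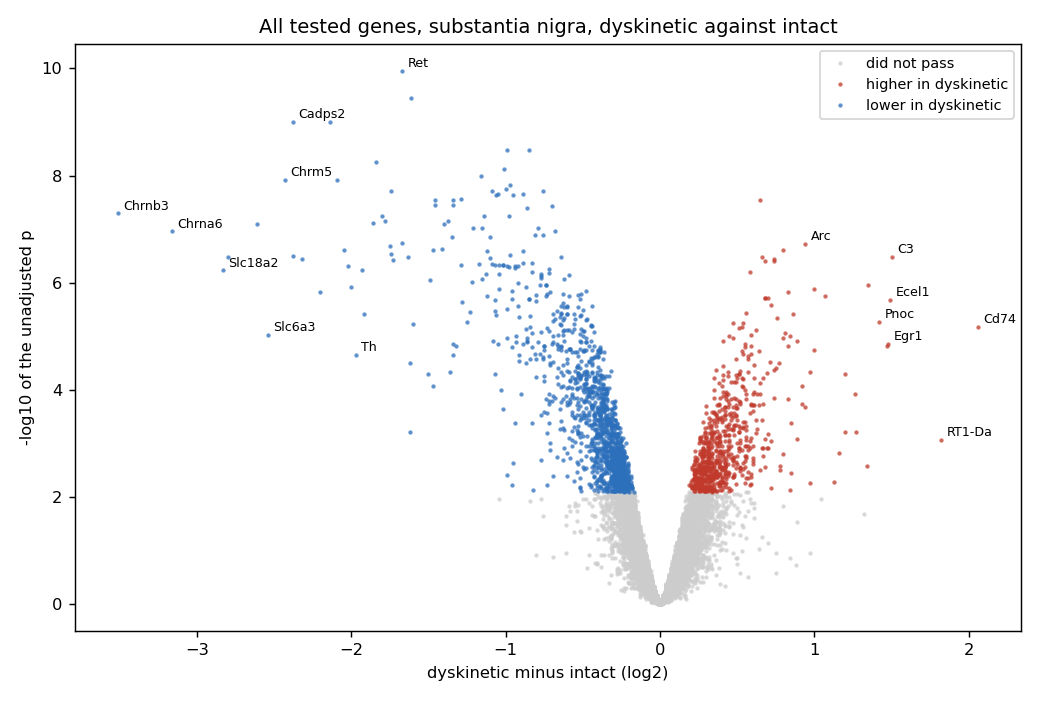
Log2 difference of dyskinetic minus intact nigra (x axis) against the -log10 of the unadjusted limma p (y axis) for 12436 genes, 1 point per gene, with the 686 genes higher in dyskinetic nigra in red, the 1310 lower in blue and the rest in grey. The falls reach -3.51 (Chrnb3) and the rises 2.06 (Cd74).

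Genes of dopamine synthesis and transport fell to between 2.77 and 7.12 times less than in intact nigra, while Pts, Spr and Qdpr of cofactor synthesis and recycling and the monoamine oxidases Maoa and Maob did not pass. Of the 12 genes on this list, 11 had a probe set of their own and were tested, 6 fell and none rose, where 10.5% of all genes fell. Th, tyrosine hydroxylase, the rate-limiting enzyme, stood at 10.86, 11.29 and 12.22 on the dyskinetic arrays and at 13.39, 13.50 and 13.38 on the intact arrays. Every dyskinetic array was below every intact one, and the difference was -1.97 ± 0.30 (adjusted p = 0.00094), a level 3.91-fold lower. Slc6a3, the dopamine transporter through which 6-OHDA enters, read 10.03, 10.27 and 11.62 in dyskinetic and 13.03, 13.32 and 13.18 in intact nigra. Slc18a2, the vesicular monoamine transporter, read 7.99, 8.37 and 9.59 in dyskinetic and 11.40, 11.60 and 11.44 in intact nigra. The groups were apart for both transporters, with differences of -2.54 ± 0.36 (adjusted p = 0.00057) for Slc6a3 and -2.83 ± 0.31 (adjusted p = 8.5e-05) for Slc18a2, the largest fall of the list.

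Ddc, the decarboxylase that turns levodopa into dopamine, had 8.92, 8.86 and 9.91 in dyskinetic and 11.19, 11.40 and 11.17 in intact nigra and fell by 2.02 ± 0.22 (adjusted p = 7.5e-05). Aldh1a1, an aldehyde dehydrogenase of ventral nigral dopamine neurons, had 9.09, 8.98 and 9.83 in dyskinetic and 10.99, 11.12 and 11.03 in intact nigra (-1.75 ± 0.17, adjusted p = 5.4e-05). Gch1, which starts the synthesis of the tetrahydrobiopterin cofactor of tyrosine hydroxylase, had 6.16, 6.33 and 6.65 in dyskinetic and 7.69, 8.20 and 7.64 in intact nigra (-1.47 ± 0.15, adjusted p = 5.7e-05). In each of these 6 genes dyskinetic array 3 was the highest of its group and still lay below all intact arrays, as the plot of these genes by array shows. Without that array the falls were larger, -2.35 for Th, -3.03 for Slc6a3, -3.30 for Slc18a2, -2.36 for Ddc, -2.02 for Aldh1a1 and -1.61 for Gch1. The same array carried the serotonergic markers, and serotonin neurons also use Ddc, Gch1 and Slc18a2; their part in its level was not tested. Of the 40 dopamine neuron list genes that fell, array 3 was the highest dyskinetic array in 27, array 2 in 9 and array 1 in 4.

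The other genes of the list moved little. Pts and Spr, which complete the cofactor, differed by -0.22 (adjusted p = 0.19) and -0.16 (adjusted p = 0.36), and Qdpr, which recycles it, by 0.26 (adjusted p = 0.052). The monoamine oxidases Maoa (-0.22, adjusted p = 0.086) and Maob (-0.06, adjusted p = 0.81) also missed the threshold. Single exons gave the same direction as the gene mean: all 13 probe sets of Th, all 16 of Slc6a3 and all 17 of Slc18a2 were lower in dyskinetic nigra without overlap, where 18.8% of all probe sets naming 1 gene were.

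**Figure D2:**
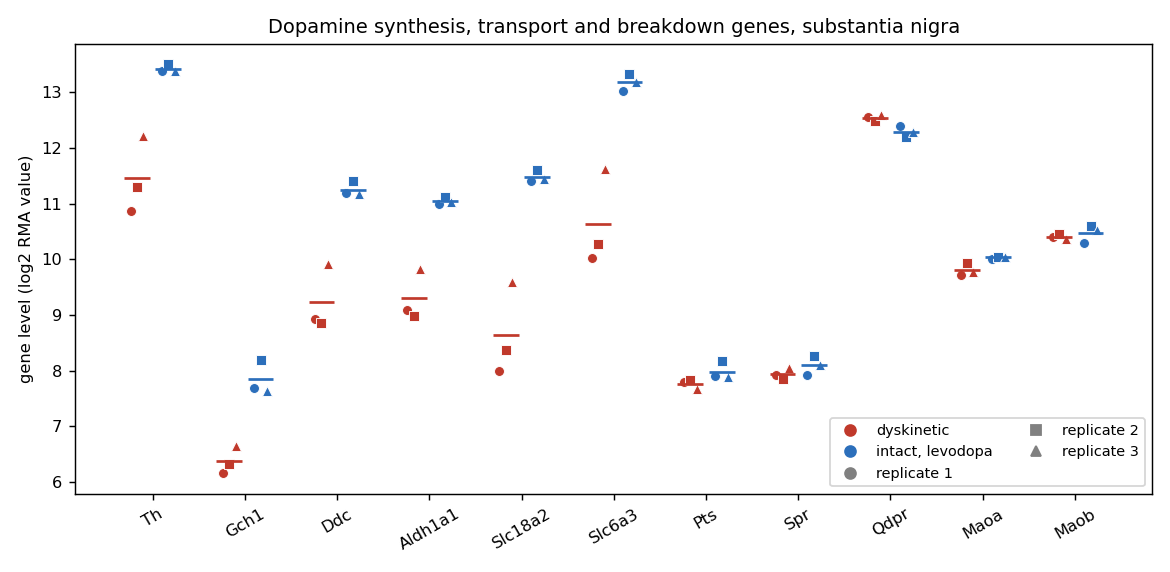
Level (log2 RMA value, y axis) of the 11 tested genes of dopamine synthesis, transport and breakdown on each nigral array, dyskinetic in red on the left of each pair and intact in blue on the right, with a bar at each group's mean and a marker shape per replicate number, which does not pair the rats. The first 6 genes are apart between groups, with dyskinetic array 3 (triangle) nearest to the intact arrays, and the other 5 lie close together.

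The promoters of the genes on this list were searched for 2 of the elements known to act on dopamine genes, and the windows with a match are shown. The 250 bases before the start of each gene came from the RefSeq annotation of rat assembly GRCr8, which held 11 of the 12 genes on the list. Of these 11 windows 2 held the CRE and 1 the NBRE. Those of Slc6a3, Gch1 and Aldh1a1, which fell, and of Pts, Spr, Qdpr, Maoa and Maob held neither. The CRE TGACGTCA, bound by CREB, a factor that activity and cAMP switch on, was found in the Th window 69 to 62 bases and in the Slc18a2 window 52 to 45 bases before the start. The NBRE AAAGGTCA, bound by Nr4a2, was found in the Ddc window 73 to 66 bases before the start, on the opposite strand, where it reads TGACCTTT. Both strands were searched and no match overlapped another. Each sequence is written 5′ to 3′ on the gene's strand, with the match in capitals.
Th, chr1:207508219-207508468, minus strand, CRE in capitals: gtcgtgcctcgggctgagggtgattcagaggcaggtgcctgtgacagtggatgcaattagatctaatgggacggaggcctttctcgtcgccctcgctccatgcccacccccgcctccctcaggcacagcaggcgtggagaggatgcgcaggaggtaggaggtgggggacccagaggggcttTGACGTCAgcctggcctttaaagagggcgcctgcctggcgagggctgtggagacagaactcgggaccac
Slc18a2, chr1:268399771-268400020, plus strand, CRE in capitals: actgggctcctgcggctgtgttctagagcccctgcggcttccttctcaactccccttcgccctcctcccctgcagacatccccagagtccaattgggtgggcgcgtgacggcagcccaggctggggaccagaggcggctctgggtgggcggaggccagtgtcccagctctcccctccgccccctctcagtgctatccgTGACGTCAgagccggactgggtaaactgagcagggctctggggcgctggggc
Ddc, chr14:90682784-90683033, minus strand, NBRE in capitals: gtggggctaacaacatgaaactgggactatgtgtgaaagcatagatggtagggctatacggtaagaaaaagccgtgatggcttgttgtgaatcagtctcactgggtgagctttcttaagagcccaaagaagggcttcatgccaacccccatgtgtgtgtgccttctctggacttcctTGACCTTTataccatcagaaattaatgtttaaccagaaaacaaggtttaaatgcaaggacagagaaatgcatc
Of 33469 rat promoter windows of this length, 531 (1.59%) held the CRE and 415 (1.24%) the NBRE. These are matches of letters only.

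Transcription factors that specify and maintain dopamine neurons were lower in dyskinetic nigra almost throughout. Of 14 listed, 13 were tested, 12 fell and Otx2, more a factor of the neighbouring ventral tegmental area, did not pass (0.03, adjusted p = 0.94). Without dyskinetic array 3 the number that fell was 10. Of all genes 10.5% fell, and 6.74% without that array. These shares apply also to the receptor and surface protein list and to the peptide and cytoplasmic protein list below. Nr4a2 (Nurr1), the nuclear receptor that dopamine neurons need to form and to survive, stood at 8.31, 9.22 and 9.05 in dyskinetic and at 10.71, 11.17 and 10.86 in intact nigra, which was -2.05 ± 0.21 (adjusted p = 5.7e-05). Pitx3, a homeobox factor of nigral dopamine neurons, stood at 7.85, 7.65 and 8.04 in dyskinetic and 9.12, 9.57 and 9.25 in intact nigra (-1.46 ± 0.13, adjusted p = 1.7e-05). The groups did not overlap for either gene.

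En1 (engrailed 1), which adult dopamine neurons need to survive in mice, had 9.19, 8.78 and 9.54 in dyskinetic and 10.71, 11.14 and 10.84 in intact nigra (-1.73 ± 0.18, adjusted p = 7e-05). Satb1, a chromatin organiser, had 8.35, 8.55 and 8.79 in dyskinetic and 9.94, 10.13 and 10.01 in intact nigra (-1.46 ± 0.12, adjusted p = 1.5e-05). Both were apart on all arrays. The 12 falls ran from Nr4a2 down to Sox6 (-0.23, adjusted p = 0.041), and the list median was -0.99.

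Receptors and surface proteins of dopamine neurons held the largest falls of all genes. Of 17 listed, 15 were tested and 12 fell, 11 without dyskinetic array 3, with a list median of -1.67; Gpr139 (0.16, adjusted p = 0.32), Gpr83 (-0.50, adjusted p = 0.062) and Lypd1 (-0.27, adjusted p = 0.41) did not pass. Chrnb3, a nicotinic acetylcholine receptor subunit of dopamine neurons, read 7.88, 7.91 and 9.20 in dyskinetic and 11.70, 12.10 and 11.73 in intact nigra. Its partner Chrna6 read 8.24, 8.40 and 9.30 in dyskinetic and 11.74, 12.05 and 11.63 in intact nigra. These were the largest differences of the comparison, -3.51 ± 0.31 (11.4-fold lower, adjusted p = 2.2e-05) and -3.16 ± 0.30 (8.93-fold lower, adjusted p = 3.3e-05).

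Chrna5, a further nicotinic subunit, read 7.00, 6.91 and 7.97 in dyskinetic and 9.40, 9.66 and 9.96 in intact nigra (-2.38 ± 0.25, adjusted p = 6.6e-05). Slc10a4, a vesicle protein of monoamine and cholinergic neurons, read 8.89, 8.92 and 10.23 in dyskinetic and 12.05, 12.28 and 12.12 in intact nigra (-2.80 ± 0.29, adjusted p = 6.6e-05). Ntsr1, the neurotensin receptor of dopamine neurons, read 8.26, 8.86 and 9.44 in dyskinetic and 11.22, 11.72 and 11.46 in intact nigra (-2.61 ± 0.24, adjusted p = 2.7e-05). In all 3 the lowest intact array was above the highest dyskinetic array.

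Drd2, the autoreceptor that slows dopamine neurons, stood at 9.09, 8.95 and 9.62 in dyskinetic and at 10.94, 11.23 and 11.06 in intact nigra (-1.86 ± 0.17, adjusted p = 2.7e-05). Ret, the signalling receptor for the survival factor GDNF, stood at 9.68, 9.84 and 9.86 in dyskinetic and at 11.37, 11.69 and 11.33 in intact nigra. Its difference of -1.67 ± 0.089 had the lowest p of the comparison (adjusted p = 1.4e-06). The SD of Ret was 0.095 in dyskinetic and 0.20 in intact nigra, and 0.034 in non-dyskinetic and 0.042 in vehicle nigra, which share the fit. The co-receptor of Ret, Gfra1, stood at 9.95, 9.81 and 10.14 in dyskinetic and at 10.99, 11.20 and 10.95 in intact nigra (-1.09 ± 0.088, adjusted p = 1.4e-05). All 23 probe sets of Ret were lower in dyskinetic nigra without overlap.

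Among peptides, calcium-binding and cytoplasmic proteins of dopamine neurons, 14 of 16 listed genes were tested and 10 fell, 7 without dyskinetic array 3; the list median was -0.63. Cadps2, which primes monoamine vesicles for release, stood at 8.01, 8.30 and 8.64 in dyskinetic and at 10.68, 10.88 and 10.55 in intact nigra (-2.38 ± 0.15, adjusted p = 3.3e-06). Dlk1, a Notch-like membrane protein, stood at 9.51, 9.75 and 10.20 in dyskinetic and at 11.96, 12.35 and 12.11 in intact nigra (-2.32 ± 0.24, adjusted p = 6.8e-05). Cck, cholecystokinin, a peptide that many dopamine neurons carry, stood at 10.23, 10.26 and 10.34 in dyskinetic and at 11.21, 11.82 and 11.47 in intact nigra (-1.23 ± 0.16, adjusted p = 0.00029). All 3 were apart between groups. Nrip3 fell as well (-0.92 ± 0.099, adjusted p = 7.4e-05), while Cplx1, Grp, Lpl and Uchl1 did not pass.

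The 12 largest falls also held 3 genes outside these lists. Chrm5, the muscarinic receptor of dopamine neurons, stood at 6.43, 6.82 and 7.17 in dyskinetic and at 9.08, 9.52 and 9.11 in intact nigra (-2.43 ± 0.19, adjusted p = 1.4e-05). Cpne7, a copine that binds membranes in the presence of calcium, stood at 7.38, 8.15 and 8.30 in dyskinetic and at 9.94, 10.42 and 10.09 in intact nigra (-2.20 ± 0.26, adjusted p = 0.00016). Atp2a3, a calcium pump of the endoplasmic reticulum, stood at 7.08, 6.98 and 7.24 in dyskinetic and at 9.13, 9.52 and 9.07 in intact nigra (-2.14 ± 0.14, adjusted p = 3.3e-06). That the arrays of the 12 largest rises and falls do not overlap follows from how they were chosen and is no separate result.

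Ion channels of pacemaking were affected in part. Of 18 tested, 8 fell and none rose, where 10.5% of all genes fell, with a list median of -0.13. Without dyskinetic array 3 the number that fell was 7, where 6.74% of all genes fell. Kcnn3, the SK3 potassium channel that spaces the spikes of dopamine neurons, read 8.76, 8.96 and 9.21 in dyskinetic and 10.10, 10.66 and 10.39 in intact nigra (-1.41 ± 0.14, adjusted p = 5.7e-05). The potassium channel subunits Kcns3 (-1.07 ± 0.11, adjusted p = 7.4e-05) and Kcnd3 (-0.72 ± 0.13, adjusted p = 0.0031) fell too. Cacna1d, the L-type calcium channel of dopamine neuron pacemaking, read 8.20, 8.31 and 8.17 in dyskinetic and 8.81, 8.82 and 8.76 in intact nigra (-0.57 ± 0.080, adjusted p = 0.00052). The potassium channels of fast-spiking neurons Kcnc1 and Kcnc2 and the pacemaker channels Hcn2 and Hcn4 were among the 10 that did not pass.

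Few markers of other nigral neurons passed, but 5.52% of all genes rose and 10.5% fell, so that short lists say little here. Of 11 nigral and midbrain GABA neuron markers 1 passed, Nkx2-2 (0.43 ± 0.13, adjusted p = 0.043). Its value without dyskinetic array 3 was 0.36 (adjusted p = 0.16), and this factor also marks oligodendrocyte precursors. Pvalb, parvalbumin of nigral projection neurons, stood at 10.73, 10.25 and 10.63 in dyskinetic and at 10.37, 10.13 and 10.39 in intact nigra, groups that overlapped (0.24, adjusted p = 0.19). Gad1 (0.20, adjusted p = 0.16) and Gad2 (0.28, adjusted p = 0.083), which make GABA, and Slc32a1 (0.26, adjusted p = 0.24), which loads it into vesicles, did not pass. The Nkx2-2 call was also lost without dyskinetic array 2 (0.10) and intact arrays 1 (0.16) and 2 (0.066). None of 7 midbrain glutamatergic markers passed in limma (1 at an unadjusted p under 0.05), nor did either tested cholinergic, serotonergic or noradrenergic marker (0 unadjusted), although 1 dyskinetic array was high in each set as given above.

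Among 15 GABA genes a pair fell and a pair rose, where 10.5% of all genes fell and 5.52% rose. The same shares apply to the pan-neuronal genes below. Gabra4, a GABA-A receptor subunit, read 9.12, 9.13 and 9.23 in dyskinetic and 10.36, 10.34 and 10.24 in intact nigra and fell (-1.15 ± 0.11, adjusted p = 3e-05), as did the GABA-B subunit Gabbr2 (-0.44 ± 0.081, adjusted p = 0.0029). Gabra2 (0.35 ± 0.059, adjusted p = 0.0019) rose. Gabrg1 (0.29 ± 0.092, adjusted p = 0.048) passed by little and was at 0.05 (adjusted p = 0.84) with the median over probe sets and missed the threshold without any 1 of the arrays but dyskinetic array 2 (adjusted p of 0.093 to 0.19). Of 12 pan-neuronal genes Syt1, the calcium sensor of vesicle release, fell most (-0.89 ± 0.091, adjusted p = 5.9e-05), beside Syn1 (-0.46 ± 0.085, adjusted p = 0.0033), Stmn2 (-0.42 ± 0.065, adjusted p = 0.0010) and Tubb3 (-0.25, adjusted p = 0.044). The neurofilament Nefl (0.26 ± 0.071, adjusted p = 0.026) rose and was at adjusted p = 0.11 without dyskinetic array 1, 0.12 without intact array 2, 0.072 without intact array 3 and 0.057 without dyskinetic array 3.

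Among receptors, 7 of 21 glutamate receptor genes fell and none rose, where 10.5% of all genes fell and 5.52% rose. Without dyskinetic array 3 there were 7 falls and 1 rise, where 6.74% of all genes fell and 2.4% rose. The same shares apply to the dopamine and serotonin receptors below. Grik3, a kainate receptor subunit, stood at 8.20, 8.42 and 8.42 in dyskinetic and at 9.49, 9.97 and 9.64 in intact nigra (-1.35 ± 0.13, adjusted p = 3.8e-05). The NMDA receptor subunits Grin2b (-0.75 ± 0.15, adjusted p = 0.0051), Grin2c (-0.42 ± 0.099, adjusted p = 0.013) and Grin1 (-0.41 ± 0.091, adjusted p = 0.0094) fell, with Grin2a, Grin2d and Grik5 beside them; Grin2c was at adjusted p = 0.065 without intact array 2 and 0.052 without intact array 3. None of the 4 tested AMPA receptor genes Gria1, Gria2, Gria3 and Gria4 passed. Of 15 dopamine and serotonin receptor genes Drd2, the channel-forming Htr3a (-0.76 ± 0.062, adjusted p = 1.4e-05) and Htr2a (-0.73 ± 0.16, adjusted p = 0.0093) fell, the last with an adjusted p of 0.062 under the median over probe sets. Drd1, which striatal axons bring into the nigra as protein, stood at 6.49 to 6.63 in dyskinetic and 6.50 to 6.73 in intact nigra.

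Immediate early genes were higher in dyskinetic nigra. Of 14 tested, 9 rose and none fell, where 5.52% of all genes rose, and the list median was 0.65. Without dyskinetic array 3 the number that rose was 8, where 2.4% of all genes rose. Against intact nigra 7 of the 14 also rose in vehicle nigra (5.52% of all genes) and 0 in non-dyskinetic nigra (0.724%). The mean of the 15 measured genes was 7.96 to 8.15 in dyskinetic, 7.76 to 7.84 in vehicle, 7.49 to 7.68 in non-dyskinetic and 7.36 to 7.48 in intact nigra. Egr1 (Zif268), a zinc finger factor, stood at 10.04, 9.85 and 9.73 in dyskinetic and at 8.35, 8.56 and 8.26 in intact nigra (1.48 ± 0.22, adjusted p = 0.00074). Fos, a subunit of the AP-1 factor, stood at 9.20, 8.75 and 9.08 in dyskinetic and at 7.75, 7.63 and 7.60 in intact nigra (1.35 ± 0.16, adjusted p = 0.00013). Npas4, a factor that depolarisation induces in neurons, stood at 8.06, 7.26 and 8.22 in dyskinetic and at 6.66, 6.64 and 6.49 in intact nigra (1.26 ± 0.23, adjusted p = 0.0031). All 3 were apart between groups, with dyskinetic array 2 the lowest of its group for Fos and Npas4.

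Arc, which acts at synapses, had 7.96, 7.81 and 8.01 in dyskinetic and 6.93, 6.92 and 7.10 in intact nigra (0.94 ± 0.093, adjusted p = 4.9e-05). Junb, another AP-1 subunit measured by 1 probe set, had 9.15, 8.80 and 9.05 in dyskinetic and 8.22, 8.19 and 8.17 in intact nigra (0.80 ± 0.081, adjusted p = 5.7e-05). Both were free of overlap. Fosb, Fosl1, Nr4a1 and Nr4a3 rose by 0.58 to 0.77, and Dusp1, Egr3, Egr4, Ier2 and Jun did not pass. Nr4a2, itself an immediate early gene in many neurons, fell as given above. Levels of such genes follow the time since a stimulus, and the time since the last dose was not given in the labels.

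Of 13 neuropeptides and secreted factors 1 rose, Vgf, a secreted peptide precursor, with 10.22, 9.50 and 10.06 in dyskinetic and 8.52, 8.80 and 8.88 in intact nigra (1.20 ± 0.20, adjusted p = 0.0018). Pnoc, the precursor of nociceptin, an opioid-like peptide, was among the 12 largest rises, with 9.93, 9.26 and 9.83 in dyskinetic and 8.21, 8.10 and 8.46 in intact nigra (1.42 ± 0.19, adjusted p = 0.00039). Igfbp2, which binds insulin-like growth factors, had 8.43, 8.09 and 8.59 in dyskinetic and 7.20, 7.04 and 7.27 in intact nigra (1.20 ± 0.27, adjusted p = 0.0093). The groups were apart for all 3. Tac1, the substance P precursor and 1 of 12 striatal projection neuron markers, passed by little (0.72 ± 0.22, adjusted p = 0.045); it was at 0.14 (adjusted p = 0.56) with the median over probe sets and missed the threshold without any 1 of the 6 arrays (adjusted p of 0.058 to 0.16), and the other 11 markers did not pass.

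Of 19 microglia markers 12 rose and none fell (list median 0.44), and 7 rose without dyskinetic array 3. Of all genes 5.52% rose, and 2.4% without that array. These are the shares to set beside this count and those of the antigen presentation, complement, interferon, astrocyte and oligodendrocyte lists. They apply also to the endothelial and stress lists below and to the neuropeptides above. The corresponding shares that fell were 10.5% and 6.74%. Against intact nigra, 7 microglia, 6 antigen presentation, 5 complement, 4 interferon, 5 astrocyte and 8 oligodendrocyte genes rose in vehicle rats (5.52% of all genes). Non-dyskinetic rats had 4, 1, 3, 2, 0 and 1 in that order (0.724%). The complement and astrocyte lists had 1 fall in each of these groups, and the interferon list 1 in vehicle rats. The microglia mean was 9.44 to 9.68 in dyskinetic, 9.32 to 9.75 in non-dyskinetic and 9.47 to 9.57 in vehicle nigra, which overlapped. Tyrobp, the adaptor of microglial receptors, stood at 10.48, 10.48 and 10.81 in dyskinetic and at 9.38, 9.73 and 9.90 in intact nigra (0.92 ± 0.16, adjusted p = 0.0025). Fcgr2b, an antibody receptor, stood at 8.17, 8.11 and 8.58 in dyskinetic and at 7.61, 7.25 and 7.46 in intact nigra (0.85 ± 0.18, adjusted p = 0.0069). Both were apart between groups. The transcription factor Spi1 (0.56 ± 0.12, adjusted p = 0.0076) and the protease Ctss (0.42 ± 0.084, adjusted p = 0.0055) rose, each with an adjusted p of 0.12 under the median over probe sets, and the microglial markers Aif1, Csf1r and Tmem119 did not pass.

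Of 14 antigen presentation genes 5 rose and 9 did not pass, among them the class I light chain B2m and the peptide transporters Tap1 and Tap2. Without dyskinetic array 3 the number that rose was 1. Cd74, the invariant chain of MHC class II, had the largest rise of all genes, with 10.90, 11.10 and 11.82 in dyskinetic and 9.15, 9.13 and 9.36 in intact nigra (2.06 ± 0.28, 4.18-fold higher, adjusted p = 0.00044), and kept it without array 3 (1.79, adjusted p = 0.0020). RT1-Da, a class II chain, had 7.98, 8.24 and 9.36 in dyskinetic and 6.70, 6.71 and 6.71 in intact nigra (1.82 ± 0.42, adjusted p = 0.012). Array 3 was the highest for both, and without it RT1-Da was at 1.40 (adjusted p = 0.053). RT1-Ba (1.13 ± 0.34, adjusted p = 0.038) and RT1-Db1 (0.70 ± 0.17, adjusted p = 0.015) rose as well, with adjusted p of 0.11 and 0.065 without array 3; RT1-Ba was also lost without dyskinetic array 2 (0.13) and without each intact array (0.055 to 0.14), and RT1-Db1 without intact array 2 (0.057). With the median over probe sets RT1-Da (adjusted p = 0.092) and RT1-Db1 (adjusted p = 0.24) lost the call, and RT1-Db1 also without dim probe sets (adjusted p = 0.058). RT1 genes are close copies of each other, so that their probe sets may share signal.

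Of 12 complement genes 6 rose and 1 fell, 2 and 1 without dyskinetic array 3. C3, the central component, read 11.48, 11.55 and 11.91 in dyskinetic and 10.20, 10.22 and 10.02 in intact nigra (1.50 ± 0.16, adjusted p = 6.6e-05), and all 41 of its probe sets were higher without overlap, where 10.8% of all probe sets naming 1 gene were. C3ar1, the receptor for its C3a fragment, read 8.32, 8.18 and 8.46 in dyskinetic and 7.76, 7.62 and 7.74 in intact nigra (0.61 ± 0.099, adjusted p = 0.0013). Cd55, which shields cells from complement, read 7.08, 7.57 and 7.52 in dyskinetic and 8.49, 8.59 and 8.28 in intact nigra and fell (-1.07 ± 0.14, adjusted p = 0.00029). The groups were apart for all 3. C1qa, a chain of the initiating C1q complex, rose by 0.36 ± 0.086 (adjusted p = 0.013, and 0.051 without array 3).

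Interferon-induced genes gave 3 rises of 18, and 1 without dyskinetic array 3. Ifitm3 rose by 0.58 ± 0.14 (adjusted p = 0.014), Irf1 by 0.36 ± 0.10 (adjusted p = 0.032) and Usp18 by 0.68 ± 0.18 (adjusted p = 0.024). Each lost its call without some single arrays, Ifitm3 without dyskinetic array 3 (0.066) and intact array 1 (0.063), Usp18 without dyskinetic array 2 (0.072) and intact array 1 (0.10). Irf1 lost it without dyskinetic arrays 1 (0.13) and 3 (0.089) and intact arrays 1 (0.11) and 3 (0.083), and when the median of its probe sets was taken (0.12). Cd4, listed as a blood cell marker and also carried by rat macrophages and microglia, stood at 9.58, 9.87 and 10.19 in dyskinetic and at 9.10, 8.91 and 8.88 in intact nigra (0.92 ± 0.18, adjusted p = 0.0040). The other 4 tested blood cell markers (Alas2, Cd79b, Cd8a and Hbb) did not pass. Fcrl2, an Fc receptor-like gene of immune cells, was among the largest rises, with 8.81, 8.77 and 8.71 in dyskinetic and 7.39, 7.52 and 7.58 in intact nigra (1.27 ± 0.28, adjusted p = 0.0091).

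Of 16 astrocyte markers and reactive genes 6 rose and 1 fell, but 1 rose and 1 fell without dyskinetic array 3. Lcn2 (lipocalin 2), an iron-binding protein of reactive glia, stood at 7.92, 7.83 and 8.77 in dyskinetic and at 6.79, 6.62 and 6.70 in intact nigra (1.47 ± 0.22, adjusted p = 0.00077), and at 1.17 (adjusted p = 0.0010) without array 3. Hspb1, a small heat shock protein, stood at 9.04, 8.35 and 9.33 in dyskinetic and at 7.50, 7.22 and 7.98 in intact nigra (1.34 ± 0.36, adjusted p = 0.024). Timp1, an inhibitor of metalloproteinases, stood at 9.02, 8.84 and 9.51 in dyskinetic and at 7.83, 7.92 and 8.15 in intact nigra (1.16 ± 0.29, adjusted p = 0.017). The groups were apart for all 3. Hspb1 was not past the threshold without dyskinetic arrays 1 (0.083) or 3 (0.10) or intact arrays 1 (0.072) or 2 (0.10), and Timp1 not without dyskinetic array 3 (0.076) or intact arrays 1 (0.060) or 2 (0.061). Gfap, the filament protein of astrocytes, stood at 12.22, 12 and 12.20 in dyskinetic and at 12.11, 12.29 and 12.04 in intact nigra, groups that overlapped (-0.01, adjusted p = 0.97), and Steap4 fell (-0.48 ± 0.069, adjusted p = 0.00061).

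Of 17 oligodendrocyte lineage markers 9 rose and none fell (list median 0.24), 2 without dyskinetic array 3, and the rises were small. Olig1, a lineage factor, read 11.18, 11.31 and 11.17 in dyskinetic and 10.88, 10.61 and 10.87 in intact nigra (0.43 ± 0.082, adjusted p = 0.0036). Opalin (0.52 ± 0.12, adjusted p = 0.012), Ugt8 (0.47 ± 0.12, adjusted p = 0.021) and Mbp (0.24 ± 0.063, adjusted p = 0.022), all of myelin, rose. Mbp lost its call without dyskinetic arrays 2 (0.070) or 3 (0.072) and intact arrays 1 (0.057) or 2 (0.096), Ugt8 without the same arrays (0.067, 0.076, 0.058 and 0.095) and Opalin without intact array 2 (0.062). The endothelial genes Tek (0.32 ± 0.10, adjusted p = 0.044) and Slco1c1 (0.37 ± 0.12, adjusted p = 0.049) passed of 11, none without dyskinetic array 3 (4 at an unadjusted p under 0.05). Both also lost the call when the median of their probe sets was taken (0.18 and 0.094), without either other dyskinetic array and without intact arrays 1 or 2, at adjusted p of 0.075 to 0.18. None of 9 meningeal and 4 choroid plexus markers passed in limma (0 and 1 at an unadjusted p under 0.05).

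Of 14 stress, injury and growth arrest genes 4 rose and 2 fell, 4 and 1 without dyskinetic array 3. Ecel1, a membrane peptidase that injured neurons induce, stood at 8.48, 8.29 and 8.14 in dyskinetic and at 6.80, 6.80 and 6.82 in intact nigra (1.49 ± 0.18, adjusted p = 0.0002). Mt1, a metallothionein, stood at 11.36, 11.40 and 11.36 in dyskinetic and at 10.54, 10.58 and 10.50 in intact nigra (0.83 ± 0.16, adjusted p = 0.0036). Atf3, a transcription factor of injured neurons, stood at 7.06, 7.08 and 6.83 in dyskinetic and at 6.07, 6.46 and 6.22 in intact nigra (0.74 ± 0.12, adjusted p = 0.0016). The arrays were apart for all 3, and Gap43, a growth cone protein, fell (-0.46 ± 0.078, adjusted p = 0.0018). None of 19 mitochondrial respiratory chain genes passed in limma (3 at an unadjusted p under 0.05). With quantile normalization 2 of them rose. In the cortical and hippocampal list 1 of 7 genes fell, Rasgrf2 (-0.64 ± 0.096, adjusted p = 0.00079).

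**Figure D3:**
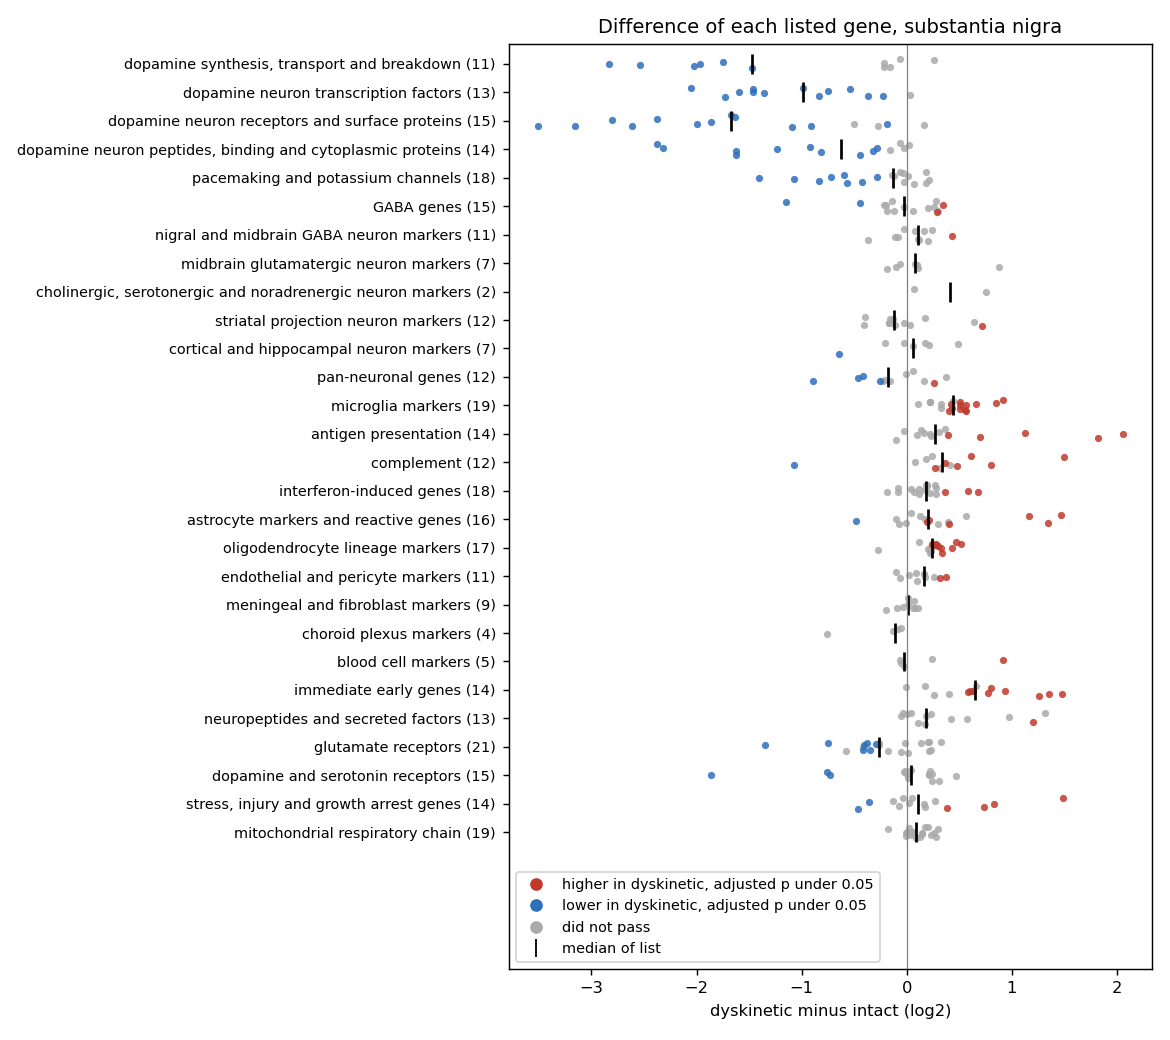
Log2 difference of dyskinetic minus intact nigra (x axis) for each tested gene of the 28 lists (rows, with the number tested in brackets), red where higher and blue where lower at an adjusted p under 0.05, grey otherwise, with a black bar at the list median. The 4 dopamine neuron lists lie to the left with medians of -0.63 to -1.67, and immediate early genes lie furthest to the right with a median of 0.65.

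Dyskinetic nigra was also set against the nigra of the other lesioned rats. Non-dyskinetic rats had levodopa too and differed in movement outcome. Vehicle rats differed in both drug and movements, which cannot be told apart in that comparison. These comparisons use the same dyskinetic arrays. The test against non-dyskinetic rats called 30 genes (0.241%), of which 21 were higher (0.169%) and 9 lower (0.0724%), and 1813 genes reached an unadjusted p under 0.05. Leaving out single arrays gave 0 to 24 genes in limma, the 0 without dyskinetic array 1, where 1326 had an unadjusted p under 0.05. Leaving out dyskinetic arrays 2 and 3 in turn gave 16 and 12, and leaving out non-dyskinetic arrays 1 and 2 gave 9 and 11. Of the genes named above 4 passed, the immediate early genes Arc (0.70, adjusted p = 0.010), Junb (0.56, adjusted p = 0.010) and Egr1 (1.26, adjusted p = 0.037), which were higher, and Ret (-0.62, adjusted p = 0.010), which was lower.

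Egr1 read 10.04, 9.85 and 9.73 in dyskinetic and 8.84, 8.58 and 8.43 in non-dyskinetic nigra. Arc read 7.96, 7.81 and 8.01 in dyskinetic and 7.36, 7.07 and 7.26 in non-dyskinetic nigra. Ret read 9.68, 9.84 and 9.86 in dyskinetic and 10.44, 10.43 and 10.38 in non-dyskinetic nigra. The groups were apart for the 3 genes and for Junb (lowest dyskinetic array 8.80, highest non-dyskinetic array 8.49). For genes picked by the threshold this is no separate result, and the share of all genes apart between these groups was not counted. All 4 lost the call without dyskinetic array 1, at adjusted p of 0.060 for Arc, 0.063 for Junb, 0.17 for Egr1 and 0.065 for Ret. Taking the median of its probe sets also ended the call of Arc (0.32, adjusted p = 0.30). Arc lost it also without dyskinetic array 3 (0.051), Junb without dyskinetic array 3 (0.055) and non-dyskinetic arrays 1 (0.054) and 2 (0.071), Ret without non-dyskinetic arrays 1 (0.054) and 2 (0.071), and Egr1 without any array of either group (0.057 to 0.17). In vehicle nigra Egr1 read 9.89, 8.82 and 8.96 (dyskinetic minus vehicle 0.65, adjusted p = 0.12 in limma). Only vehicle array 1, the array high in striatal markers, overlapped dyskinetic nigra, and vehicle arrays 2 and 3 lay below every dyskinetic array. With that array included, vehicle nigra was itself higher than intact nigra for Egr1 (0.83, adjusted p = 0.027). The part of the striatal signal in these values was not tested.

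Dopamine neuron genes mostly missed the threshold between dyskinetic and non-dyskinetic nigra: of the 53 tested genes on the 4 dopamine neuron lists 1 passed, Ret, and the median was -0.17. Th read 12.45, 12.36 and 12 in the non-dyskinetic group, which dyskinetic array 3 (12.22) overlapped (-0.82, adjusted p = 0.24). For Chrnb3 non-dyskinetic nigra had 9.99, 9.90 and 9.44, all above the dyskinetic arrays (-1.45, adjusted p = 0.098). Set against intact nigra, 40 of these 53 genes fell in dyskinetic, 32 in non-dyskinetic and 38 in vehicle rats, with medians of -1.09, -0.92 and -1.16, where 10.5%, 3.97% and 7.26% of all genes fell (genes called in either direction were 16.1%, 4.7% and 12.8%). The differences in that order were -1.97, -1.15 and -2.62 for Th and -2.83, -1.97 and -3.31 for Slc18a2. These 3 comparisons share the intact arrays, and the differences between their counts were not tested.

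Some genes chosen after their values were seen lay apart in dyskinetic nigra from the other lesioned groups and from intact nigra. Tubb6, a tubulin, read 8.47, 8.48 and 8.55 in dyskinetic, 7.51 to 7.81 in non-dyskinetic, 7.42 to 7.92 in vehicle and 7.34 to 7.59 in intact nigra, and it was higher than in non-dyskinetic nigra by 0.82 (adjusted p = 0.010). Slc38a3, a glutamine transporter of astrocytes, read 11.18 to 11.21 in dyskinetic, 10.65 to 10.70 in non-dyskinetic, 10.52 to 10.61 in vehicle and 10.51 to 10.58 in intact nigra (0.51 over non-dyskinetic, adjusted p = 0.0055). Hsd11b1, which regenerates active glucocorticoid, read 9.05 to 9.08 in dyskinetic, 8.41 to 8.56 in non-dyskinetic, 8.16 to 8.35 in vehicle and 8.22 to 8.48 in intact nigra (0.60 over non-dyskinetic, adjusted p = 0.010). In these 3 genes every dyskinetic array was above every array of the other groups. The vascular genes Bcl6b (0.70, adjusted p = 0.010) and Adgrl4 (0.58, adjusted p = 0.010) and Dio2, which activates thyroid hormone (0.78, adjusted p = 0.010), were higher than in non-dyskinetic nigra too, and the kinase Wnk2 (-0.46, adjusted p = 0.020) was lower. Since 0 genes passed against non-dyskinetic nigra without dyskinetic array 1, every call of this paragraph was lost in that setting. None of the 11 tested endothelial and pericyte markers passed in limma against non-dyskinetic nigra. With 0.241% of all genes called there, a list this short could hardly hold a call, so that this count says little. Their mean was 9.18 to 9.28 in dyskinetic and 9.09 to 9.33 in non-dyskinetic nigra, which overlapped.

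The test against vehicle rats called 276 genes (2.22%), of which 95 were higher (0.764%) and 181 lower (1.46%), and 2605 reached an unadjusted p under 0.05. This count depended on the vehicle arrays that stood apart: it was 54 without vehicle array 1, 107 without array 3, 986 without array 2 and 20 without arrays 1 and 3. Leaving out dyskinetic arrays 1, 2 and 3 in turn gave 57, 83 and 34. Of the named genes 7 passed, and each lost the call without at least 1 array or setting. They were Lcn2 (1.09, adjusted p = 0.030), Aldh1a1 (0.93, adjusted p = 0.024), Junb (0.49, adjusted p = 0.014) and Arc (0.42, adjusted p = 0.045), higher in dyskinetic nigra, and Grin2b (-0.70, adjusted p = 0.039), Ret (-0.45, adjusted p = 0.030) and Cacna1d (-0.40, adjusted p = 0.030), lower. Once dyskinetic array 3 was left out, adjusted p-values were 0.079 for Lcn2, 0.078 for Junb, 0.17 for Arc, 0.13 for Grin2b, 0.086 for Ret and 0.12 for Cacna1d, and Aldh1a1 was at 0.078 without vehicle array 1.

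Cd74 did not pass between the lesioned groups (adjusted p = 0.84 against non-dyskinetic and 0.54 against vehicle nigra): it read 10.90, 11.10 and 11.82 in dyskinetic, 10.72, 10.78 and 11.87 in non-dyskinetic and 11.48, 11.41 and 11.87 in vehicle nigra, which overlapped, all above the 9.13 to 9.36 of intact nigra. Its difference from intact nigra was 2.06 in dyskinetic, 1.91 in non-dyskinetic and 2.38 in vehicle rats. Ecel1 likewise overlapped between the lesioned groups, at 8.14 to 8.48 in dyskinetic, 7.43 to 8.22 in non-dyskinetic and 7.77 to 8.34 in vehicle nigra, above 6.80 to 6.82 in intact nigra. Lcn2 ran from 7.83 to 8.77 in dyskinetic, 6.87 to 7.44 in non-dyskinetic, 6.90 to 7.34 in vehicle and 6.62 to 6.79 in intact nigra (1.08 over non-dyskinetic, adjusted p = 0.076).

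**Figure D4:**
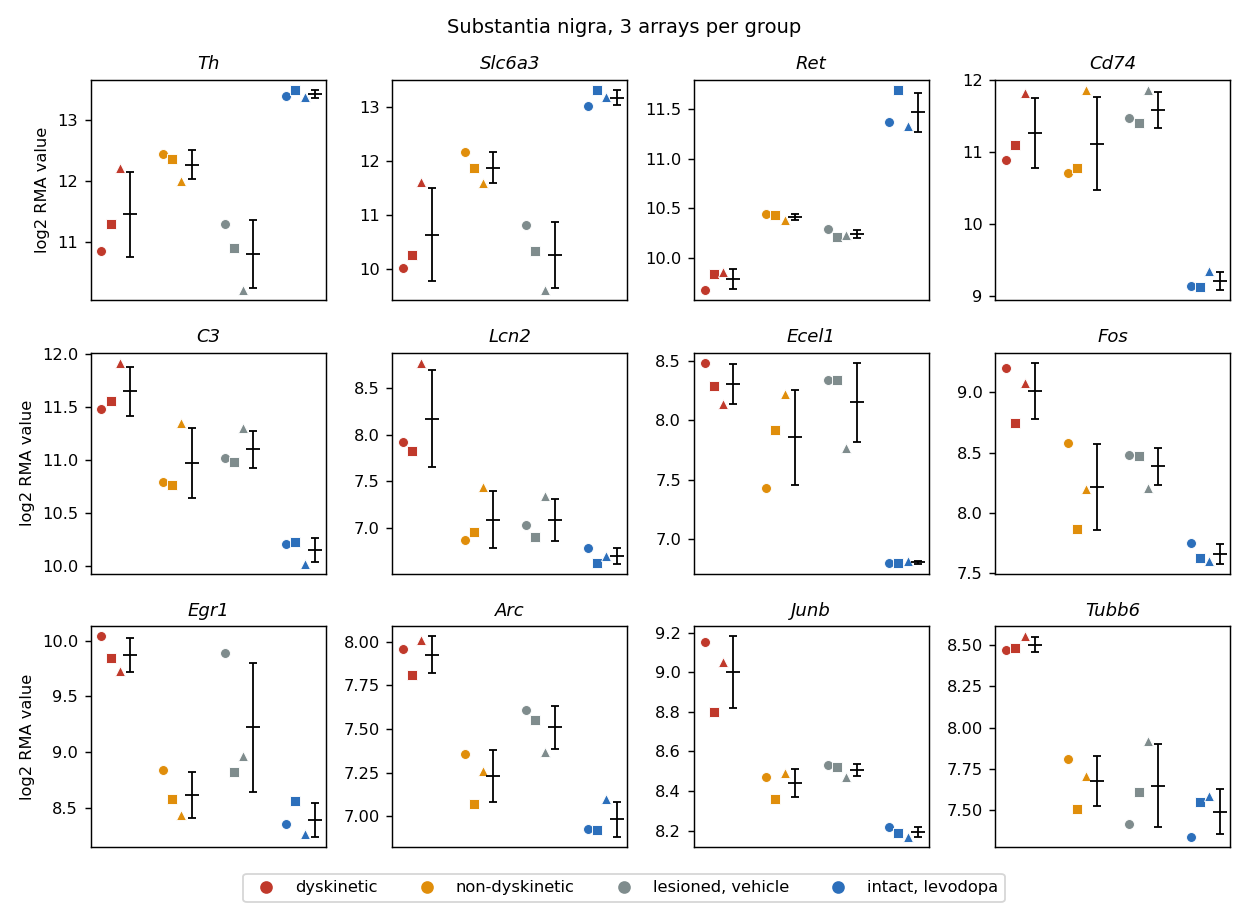
Level (log2 RMA value, y axes with their own ranges) of 12 genes on the 12 nigral arrays, with dyskinetic, non-dyskinetic, lesioned vehicle and intact levodopa groups from left to right, 1 point per rat and the mean ± SD (n = 3) beside the points in black. Cd74 and Ecel1 are high in all 3 lesioned groups, while Arc, Junb and Tubb6 are highest in the dyskinetic arrays, at 7.81 to 8.01, 8.80 to 9.15 and 8.47 to 8.55.

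The same contrast was made in the striatum, and the difference between the effects of both tissues was tested with a random effect per rat. The difference of the effects passed for 1554 of 12436 genes (12.5%), 573 more positive in nigra (4.61%) and 981 more negative (7.89%), and for 54 of the 85 genes named here. In the striatum itself 1487 genes passed (12%). Array medians were 8.205 to 8.317 in nigra and 7.90 to 7.979 in striatum, so that differences and not levels were set against each other. Nr4a2 moved in opposite directions, -2.05 ± 0.21 in nigra and 3.82 ± 0.31 in striatum, where dyskinetic arrays read 11.02, 10.98 and 9.68 and intact arrays 6.76, 6.61 and 6.80. The difference between tissues was -5.85 ± 0.42 (adjusted p = 1.2e-08). Cck did likewise, -1.23 in nigra and 2.02 in striatum (difference -3.25 ± 0.24, adjusted p = 1.8e-08), as did Chrm5 (-2.43 and 1.25, difference -3.70 ± 0.26, adjusted p = 1.2e-08) and Th (-1.97 and 1.01, difference -2.95 ± 0.36, adjusted p = 8.1e-06).

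Some rises were larger in nigra. Ecel1 rose by 1.49 in nigra and was at 0.11 in striatum (difference 1.38 ± 0.21, adjusted p = 8.5e-05), Pnoc at 1.42 and 0.12 (1.31 ± 0.22, adjusted p = 0.00033) and Igfbp2 at 1.20 and 0.12 (1.08 ± 0.28, adjusted p = 0.013). Timp1 went the other way in size, 1.16 in nigra and 3.01 in striatum (-1.85 ± 0.55, adjusted p = 0.028). Timp1 lost this call without nigral dyskinetic array 1 (0.059) or 2 (0.078) or nigral intact array 2 (0.061) or 3 (0.063). The call was also lost when the median of its probe sets was taken (0.051). Of the 14 immediate early genes 6 passed for a difference between tissues, 5 with a more negative effect in nigra and 1, Egr1, with a more positive one (1.48 in nigra and 0.67 in striatum). The 5 were Fosb (0.63 in nigra and 2.44 in striatum, adjusted p = 0.00015), Nr4a3 (0.60 and 2.15, adjusted p = 0.0027), Egr4 (0.17 and 1.23, adjusted p = 0.00025), Egr3 (0.40 and 1.16, adjusted p = 0.013) and Jun (-0.01 and 0.97, adjusted p = 0.016). The Egr1 call was lost without any 1 of the 6 nigral arrays (adjusted p of 0.060 to 0.11). Striatal arrays were not left out. Fos (1.35 and 1.54), Arc (0.94 and 1.43), Junb (0.80 and 1.26) and Npas4 (1.26 and 1.34) were among the 8 that did not pass (adjusted p of 0.22 to 0.89). Cd74 (2.06 and 0.96, adjusted p = 0.21) and C3 (1.50 and 0.90, adjusted p = 0.19) did not either.

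**Figure D5:**
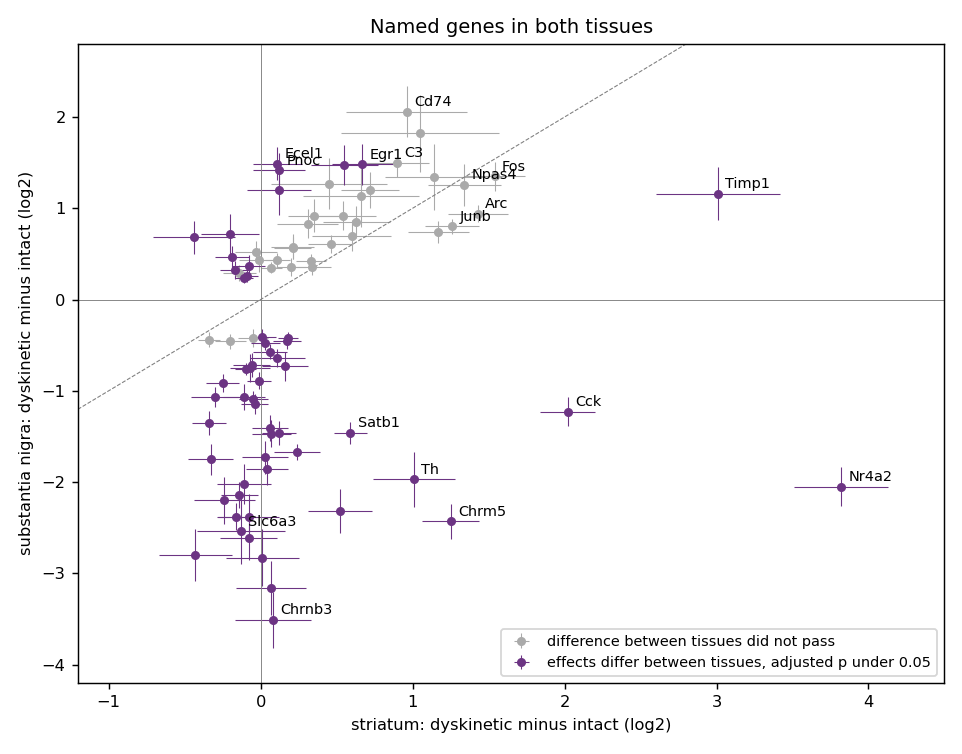
Log2 difference of dyskinetic minus intact rats in substantia nigra (y axis) against striatum (x axis) for the 85 named genes, with standard errors as bars and the line of equal effects dashed; purple marks the 54 genes whose effects differ between tissues at an adjusted p under 0.05. Nr4a2, Cck, Chrm5 and Th lie in the lower right, with falls in nigra and rises in striatum.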

How the data were processed

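RNA from 12 nigral and 12 striatal punches, 3 rats in each of 4 groups per tissue, was labelled with biotin and hybridised to Affymetrix rat exon arrays. The 24 arrays came from 14 rats, 10 of them with both tissues. The deposited values were log2 expression per probe set, made by the authors with RMA in oligo 1.34 under R 3.2.3, per the submitters' processing notes. The array's genome build was not given in the sources used here. Of 213067 probe sets, 172924 named 1 gene in an annotation of 2010, 1661 several and 38482 none. Symbols were updated through the rat GRCr8 gene table: 12878 of 16633 were current, 3700 were updated and 55 kept. A gene's value was the mean of its own probe sets (median 8). The 25% of genes with the lowest mean were left out.

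Groups were compared with limma 3.58.1 in R 4.3.3 (lmFit and eBayes over the 12 nigral arrays, 4 group means, two-sided, Benjamini-Hochberg). The tissue difference came from a fit of 24 arrays in which samples of 1 rat were correlated (duplicateCorrelation, 0.153). The procedure was tested on simulated data. Named genes were the 12 largest rises and the 12 largest falls past the threshold without overlap between groups, Th, Slc6a3, Slc18a2, Ddc and Nr4a2, and up to 4 genes past the threshold from each of 28 lists (435 genes). Any other gene was named with its values in view. The members, lists and tests were chosen with earlier results of these data known. The arrays' number limits the precision, and the smallest groups had 3 rats. Titles number the rats 1 to 3 in each group; same-numbered dyskinetic and intact arrays had correlated deviations of 0.045, 0.07 and 0.219, so that the numbers were not taken as pairs. Promoters were read from the RefSeq table. Alternatives covered the probe-set summary, the filter, scaling, weights, the arrays in the fit and each nigral array of the compared groups left out.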

Additional observations from a re-analysis of the deposited data

Results flagged for a closer look

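For 54 named genes the dyskinetic minus intact difference in nigra differed from that in striatum in limma's test of the difference. The values that follow are the nigral effect minus the striatal effect on the log2 scale. Among genes of dopamine synthesis and transport they were -2.95 for Th, -2.84 for Slc18a2, -2.42 for Slc6a3, -1.92 for Ddc, -1.54 for Gch1 and -1.42 for Aldh1a1. Among transcription factors they were -5.85 for Nr4a2, -2.05 for Satb1, -1.77 for En1 and -1.59 for Pitx3. Receptors and surface proteins ran from -3.60 for Chrnb3 and -3.24 for Chrna6 through -2.54 for Ntsr1, -2.38 for Slc10a4, -2.30 for Chrna5, -1.89 for Drd2 and -1.89 for Ret to -1.03 for Gfra1. Peptides and cytoplasmic proteins had -3.25 for Cck, -2.84 for Dlk1, -2.23 for Cadps2 and -0.66 for Nrip3, and the further large falls had -3.70 for Chrm5, -2.0 for Atp2a3 and -1.96 for Cpne7.

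Among channels and receptors the values were -1.47 for Kcnn3, -1.12 for Gabra4, -1.01 for Grik3, -0.90 for Htr2a, -0.75 for Kcns3, -0.68 for Grin2b, -0.67 for Kcnd3, -0.66 for Htr3a, -0.62 for Cacna1d and -0.41 for Grin1. Other neuronal genes had -0.89 for Syt1, -0.73 for Rasgrf2, -0.62 for Syn1, -0.60 for Stmn2 and 0.36 for Nefl. Glial, vascular and immune genes had -1.85 for Timp1, -0.97 for Cd55, -0.51 for Steap4, 0.34 for Mbp, 0.45 for Slco1c1, 0.49 for Tek, 0.65 for Ugt8, 0.90 for Lcn2 and 1.10 for Usp18. Positive values of neuronal and secreted genes were 1.38 for Ecel1, 1.31 for Pnoc, 1.08 for Igfbp2, 0.92 for Tac1 and 0.82 for Egr1. A setting or a left-out nigral array ended the call for 12 of the 54, among them Egr1, Lcn2, Rasgrf2, Usp18 and Slco1c1.

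Of 28871 tested probe sets that name no gene, 806 passed between dyskinetic and intact nigra (2.79%), 250 higher and 556 lower. Of 1236 tested probe sets that name several genes, 21 passed (1.7%), 9 higher and 12 lower.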

How the results depend on the processing

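For dyskinetic against intact nigra the 1996 genes became 3307 with array weights, 1003 to 1635 when each array was left out in turn, and 1325 without vehicle arrays 1 and 3 and dyskinetic array 3 (chosen after seeing the data); the other settings gave 1443 to 2631. Of the 85 named genes 63 passed under every alternative run and 22 lost the call under at least 1, and none changed direction. Against non-dyskinetic nigra the 30 genes became 16 with the median over probe sets, 17 with the lowest 50% of genes left out, 18 without dim probe sets, 104 with array weights, 56 without vehicle arrays 1 and 3 (chosen after seeing the data) and 0 to 24 with single arrays left out, the 0 with 1326 at an unadjusted p under 0.05 in limma. Against vehicle nigra the 276 genes became 30 with only the 6 arrays of both groups, 87 with the median over probe sets, 174 with no filter, 3393 with array weights, 20 without vehicle arrays 1 and 3 (chosen after seeing the data) and 34 to 986 with single arrays left out. The tissue difference gave 1048 to 1587 genes, and 1060 to 1414 with single nigral arrays left out, while striatal arrays were all kept. The cause of these shifts was not tested.

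With the replicate number as a block the counts were 1860 against intact, 30 against non-dyskinetic and 143 against vehicle nigra, and 1525 for the tissue difference. Among named genes the block ended the calls of Tek (adjusted p = 0.055) and Slco1c1 (0.068) against intact nigra, of Arc (0.054), Cacna1d (0.054) and Grin2b (0.064) against vehicle nigra, and of Rasgrf2 (0.055), Usp18 (0.050) and Slco1c1 (0.053) for the tissue difference. The numbers are only shared labels.

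Signal limits the lists: 6 of 8 cholinergic, serotonergic and noradrenergic markers and 10 of 15 measured blood cell markers lay among the lowest 25% and were not tested. Levels near the low end of the scale understate differences. Groups of 3 limit the precision. Between dyskinetic and intact rats the toxin and the movements differ together and cannot be told apart. Between dyskinetic and vehicle rats the same holds for levodopa and the movements.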

Other observations

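Further genes that passed between dyskinetic and intact nigra are given here by family. The families were picked after their values were seen and were not tested as families, and of all genes 10.5% fell and 5.52% rose. Of 9 nicotinic receptor subunits tested 6 fell, of which Chrna4, Chrna5, Chrna6 and Chrnb3 are counted above among dopamine neuron receptors. Chrna3 stood at 6.95, 7.54 and 7.79 in dyskinetic and at 8.85, 9.53 and 9.67 in intact nigra (-1.92 ± 0.25, adjusted p = 0.00031 in limma). Of 14 fibroblast growth factors 3 fell and 11 did not pass, with a median of 0.01. Fgf20, a growth factor of dopamine neurons, stood at 6.61, 6.56 and 6.91 in dyskinetic and at 8.04, 8.63 and 8.42 in intact nigra (-1.67 ± 0.16, adjusted p = 4.8e-05). Fgf13, which binds sodium channels, fell by 1.93 ± 0.21 (adjusted p = 8.3e-05) and Fgf1 by 1.37 ± 0.12 (adjusted p = 2.6e-05). The arrays of both groups were apart for all 4 genes.

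Of 18 netrin, slit and semaphorin receptors 5 fell, 1 rose and 12 did not pass, with a median of -0.08. Robo2, a slit receptor, stood at 8.98, 9.09 and 9.11 in dyskinetic and at 9.97, 10.16 and 9.98 in intact nigra (-0.98 ± 0.087, adjusted p = 2.3e-05), and Dcc, a netrin receptor, fell by 0.76 ± 0.072 (adjusted p = 3.7e-05). The rise was in Robo4, an endothelial member (0.32 ± 0.094, adjusted p = 0.034). Of 12 tubulins Tubb6 (1.00 ± 0.12, adjusted p = 0.00015), Tuba1c (0.56 ± 0.15, adjusted p = 0.020) and Tubb2b (0.43 ± 0.11, adjusted p = 0.016) rose, while the neuronal Tubb3 fell and the other 8 did not pass, with a median of -0.02. Of 6 caspases both inflammatory members Casp4 (0.97 ± 0.16, adjusted p = 0.0017) and Casp1 (0.49 ± 0.085, adjusted p = 0.0021) rose and the other 4 did not pass.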
